A study of Mus musculus with 43 samples.

Results

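The cytosolic heat shock genes were measured in the mouse retina after laser injury through 10 genes. They are the rows of a count table of 54532 genes whose Ensembl identifiers carry the symbols *Hspa1a*, *Hspa1b*, *Hspa8*, *Hsph1*, *Dnajb1*, *Hspb1*, *Hsp90aa1*, *Hsp90ab1*, *Hspd1* and *Hsf1*. All 10 were found, and all 10 were among the 18197 genes that passed the filter on low counts. The shared name holds for 8 of them. The product of *Hspd1* (HSP60) folds proteins inside mitochondria, and *Hsf1* encodes a transcription factor.

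RNA was sequenced from the retinas of male and female C57BL/6J mice, 9 weeks old when laser burns were set to induce choroidal neovascularization, a model of neovascular macular degeneration. Treated animals drank short-chain fatty acids (SCFA), namely acetate at 67.5 mM, propionate at 40 mM and butyrate at 25 mM, from 3 weeks before the laser until collection, and controls did not receive them. Retinas were collected 3, 7 or 14 days after the laser, and each of the 43 libraries was a pool of 2 retinas from different animals of a group. The g/L values that the methods give beside these concentrations do not match them for propionate and butyrate, so the doses of these remain uncertain. All animals were lasered, so none of the groups shows an uninjured retina. In males, control libraries numbered 4 at day 3, 3 at day 7 and 3 at day 14, and SCFA libraries numbered 3, 5 and 3. In females, control libraries numbered 3 on each day, and SCFA libraries numbered 5 at day 3, 4 at day 7 and 4 at day 14.

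Heat shock proteins are molecular chaperones. HSP70 proteins bind unfolded stretches of client proteins and release them in a cycle driven by ATP, in which J-domain proteins such as DNAJB1 deliver clients and nucleotide exchange factors such as HSPH1 (HSP110) reset the cycle. HSP90 proteins take over partly folded clients, among them kinases and steroid receptors, while small heat shock proteins such as HSPB1 hold unfolded proteins without using ATP. Under stress, HSF1 is released from chaperones, forms trimers and binds heat shock elements, inverted repeats of the unit GAA, in the promoters of these genes. In the retina, photoreceptors make and turn over large amounts of membrane protein, and HSPB1 and its relative CRYAB are also found in the lens.

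The members lie on 7 chromosomes of GRCm38, all as protein-coding genes. *Hspa1a* (ENSMUSG00000091971, chr17:34969190-34972156) and *Hspa1b* (ENSMUSG00000090877, chr17:34956436-34959238) are neighbours on the minus strand, and *Hsp90ab1* (ENSMUSG00000023944, chr17:45567775-45573271) is on the same chromosome. *Hsph1* (ENSMUSG00000029657, chr5:149614287-149636376) and *Hspb1* (ENSMUSG00000004951, chr5:135887919-135889563) are on chromosome 5. The others are *Hspa8* (ENSMUSG00000015656, chr9:40800984-40810087), *Dnajb1* (ENSMUSG00000005483, chr8:83608193-83612653), *Hsp90aa1* (ENSMUSG00000021270, chr12:110690605-110702728), *Hspd1* (ENSMUSG00000025980, chr1:55077835-55088243) and *Hsf1* (ENSMUSG00000022556, chr15:76477422-76501913).

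Several members share sequence with other genes, which bears on how reads were assigned to them. The longest transcript of each member was searched, and exons outside it were not. Of all stretches of 150 bases in that of *Hspa1b*, 40.5% also occur in another gene, chiefly *Hspa1a*, and the share is 39.7% for *Hspa1a*. It is 36.6% for *Hspb1* (shared with the pseudogene *Hsp25-ps1*), 36.2% for *Hsp90aa1* (chiefly with Gm12346), 21.9% for *Hspa8* (chiefly with Gm15459), 18.6% for *Hspd1* (with Hspd1-ps3), and 0% for *Hsph1*, *Dnajb1*, *Hsp90ab1* and *Hsf1*. *Hspa1a* overlaps *Gm20481* and *Hspd1* overlaps *Hspe1*, both on the opposite strand. The strand setting of the counting is not given in the sources used here, so reads in these overlaps cannot be told apart, and the split between *Hspa1a* and *Hspa1b* is uncertain.

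RefSeq promoters (GRCm38.p6, from 250 bases before to 50 bases after the start) were at hand for 6 of the 10 members, namely *Hspa1a*, *Hspa1b*, *Hsph1*, *Dnajb1*, *Hspb1* and *Hspd1*. They were searched on both strands for a pair of heat shock units in the form GAANNTTC or TTCNNGAA, which can overlap each other and which occurs in 15.06% of 32851 promoters of this length. The promoters of *Hspa1a* and *Hspa1b* matched at 296 of 300 bases, each with 1 such pair. Stretches are printed for *Hspa1a*, *Hspa1b*, *Hsph1* and *Hspb1*, in which a pair was found. The stress-inducible *Dnajb1*, whose windows held none, is not printed, and neither is *Hspd1*. The following stretches run from 150 to 21 bases before the start, 5′ to 3′ on the strand of the gene, and capitals mark the pairs of units.
*Hspa1a* (chr17:34972177-34972306, minus strand) and *Hspa1b* (chr17:34959259-34959388, minus strand): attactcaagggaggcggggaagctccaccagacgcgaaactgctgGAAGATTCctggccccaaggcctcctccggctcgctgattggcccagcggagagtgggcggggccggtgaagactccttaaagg
*Hsph1* (chr5:149636357-149636486, minus strand): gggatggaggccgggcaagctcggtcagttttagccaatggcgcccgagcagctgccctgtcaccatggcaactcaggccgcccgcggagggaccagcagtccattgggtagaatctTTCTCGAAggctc
*Hspb1* (chr5:135887769-135887898, plus strand): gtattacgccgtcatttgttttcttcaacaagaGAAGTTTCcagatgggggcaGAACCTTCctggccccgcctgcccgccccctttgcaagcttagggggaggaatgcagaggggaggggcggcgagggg
The whole window of *Hspb1* held 2 pairs and that of *Hsph1* held 3. Of the windows listed for *Dnajb1*, none held a pair, and of the 2 windows of *Hspd1* the second held 3. A match to these letters describes the sequence and is no measurement of HSF1 binding.

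The libraries held between 14826957 and 21507527 counts each (median 17683615). Levels are given as CPM, counts scaled to a common library size by edgeR's TMM factors. The table holds a first run of 31 columns and a last run of 12 columns, whose share of counts from mitochondrially encoded genes was 4.71 to 14.8% in the first and at most 4.57% in the last. The run entered the main fit as a block. The last run held no controls of males at days 7 and 14 or of females at days 3 and 7. It also held no SCFA library of males at day 14. Female SCFA day 3 replicate 2 stood apart by its lens transcripts. Its 6 lens markers (*Cryaa*, *Crygs*, *Crybb2*, *Cryba1*, *Mip* and *Bfsp1*) summed to 210199 CPM, against 0.510 to 602 CPM in the other 42, and took 14.8% of its counts, against at most 0.0617% elsewhere. Calls of members in females at day 3 and in the mean over all strata are therefore given with and without it. Female control day 7 replicate 2 also stood apart. It held Y-linked transcripts at 40.7 CPM, against 0 in the other 21 female libraries and at least 136 CPM in males. Leaving it out alone changed no count of members called in comparisons that use its group, though it moved values of *Hsf1* at day 7. Counts in the other comparisons were not examined without it alone. Rod, oligodendrocyte and mitochondrial transcripts varied among males at day 7. The 5 rod markers summed to 45633 to 95468 CPM with SCFA and to 69607 to 72359 CPM in controls. The 5 oligodendrocyte markers summed to 30.5 to 631 CPM with SCFA and to 34.4 to 839 CPM in controls. The mitochondrial share is given below with *Hsf1*.

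Levels of the 10 genes spanned a wide range. Per kilobase of exon, the median over 43 libraries was 464 CPM for *Hsp90aa1*, the stress-inducible cytosolic HSP90, and 299 CPM for *Hspa8*, the constitutive HSP70 (HSC70). It was 189 CPM for *Hsp90ab1*, the constitutive HSP90, and 47.8 CPM for *Hspd1*. Further down were *Hspa1b* with 18.2 CPM, *Hspa1a* with 17.4 CPM, *Dnajb1* with 17.0 CPM, *Hspb1* with 8.92 CPM and *Hsph1* with 8.48 CPM. *Hsf1* had the lowest level, 5.79 CPM per kilobase.

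The upper part of this order was stable. *Hsp90aa1* was above *Hspa8* in 42 of 43 libraries, and *Hspa8*, *Hsp90ab1*, *Hspd1* and *Hspa1b* followed each other in this order in all 43. The next neighbours were ordered less strictly, with *Hspa1b* above *Hspa1a* in 30 libraries and *Hspa1a* above *Dnajb1* in 22. *Dnajb1* was above *Hspb1* in 42 libraries, the exception being the lens-rich one. *Hspb1* was above *Hsph1* in 25 libraries, while *Hsph1* was above *Hsf1* in 39. 

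**Figure D1:**
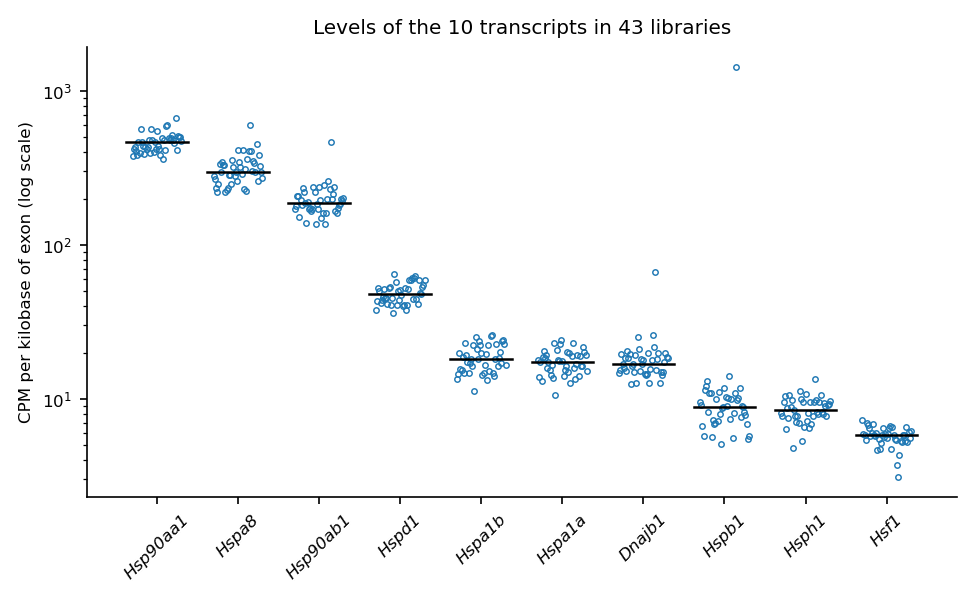
Level of each member in 43 libraries, in CPM per kilobase of exon on a log axis, with 1 point per library and a bar at the median. *Hsp90aa1* is highest at a median of 464 and *Hsf1* lowest at 5.79, and the single high point of *Hspb1* is the lens-rich library.

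Within a gene, levels were even across libraries. Without the lens-rich library, the ratio of the highest to the lowest library was between 1.80 for *Hspd1* and 2.80 for *Hsph1*. The SD within groups on the log2 scale was smallest for *Hsf1* (0.15) and largest for *Hspa1b* (0.30). In the lens-rich library, *Hspb1* reached 1464 CPM, and the ratio of highest to lowest rose to 276.

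SCFA was compared with control in each sex on each day, the main question of the study. A gene was called at an adjusted p under 0.1 in edgeR's quasi-likelihood fit (Benjamini-Hochberg). By this rule, 0 of 10 members were called in males at day 3, where 0.022% of all genes tested were called. Among males at day 7, 1 of 10 was called, *Hsf1*, which was lower, against 22.2% of all genes. Males at day 14 had 0 members called, against 7.13% of all genes. The 3 members called in females at day 3 were *Hspb1* and *Dnajb1*, which were higher, and *Hsf1*, which was lower, where 8.11% of all genes were called. For females at day 7 and at day 14, 0 members were called, against 0.643% and 0% of all genes.

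For the mean of the SCFA effect over the 6 strata of sex and day, 1 of 10 members was called, again *Hsf1* lower, against 34.7% of all genes. Without the lens-rich library, 2 of 10 were called, *Hsf1* and *Hspb1*, both lower, against 36.7% of all genes. The median log2 difference of the 10 members was 0.07 in the mean, beside 0.00310 over all genes, and its sign rested on the lens-rich library, without which it was −0.04 beside −0.00746. By stratum it ran from −0.20 in males at day 14 to 0.20 in females at day 3, and the latter was 0.08 without that library. Where 0 members were called, an unadjusted p under 0.05 was reached by 1 member in males at day 3, 1 in males at day 14, 0 in females at day 7 and 0 in females at day 14. Over all genes, 1981, 3849, 2875 and 529 reached it in these comparisons. DESeq2 also called 0 members there, but it gave no adjusted p for *Hspb1* and so could not call that gene.

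**Figure D2:**
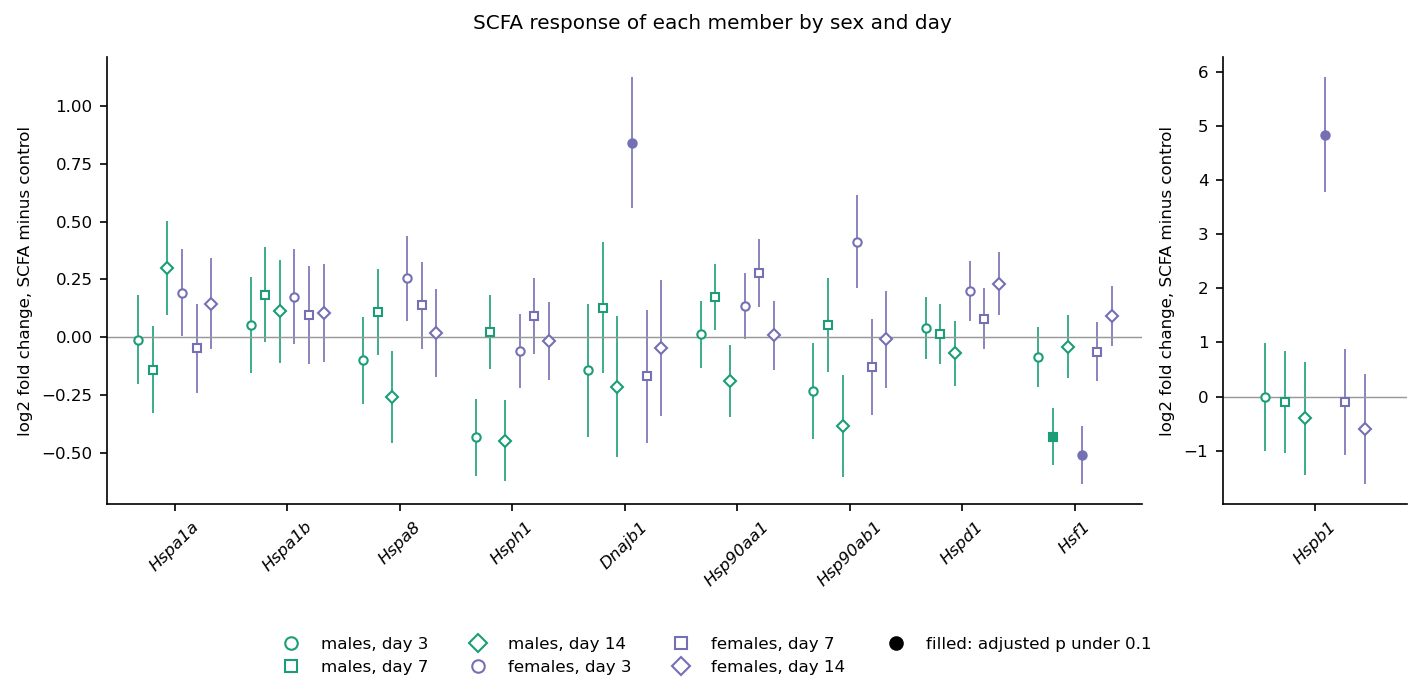
Log2 difference of SCFA minus control for each member in the 6 strata of sex and day, with bars of 1 SE from edgeR's fit and filled points where the adjusted p was under 0.1; *Hspb1* has a panel of its own with a wider axis. *Hsf1* is filled and below 0 in males at day 7 and females at day 3, and *Hspb1* stands at 4.83 in females at day 3.

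*Hsf1* encodes the main factor that switches on heat shock genes. Its levels in males at day 7 were 33.1, 39.2, 33.8, 36.5 and 41.3 CPM with SCFA and 49.9, 48.3 and 45.8 CPM in controls. All 5 SCFA libraries were below all 3 controls. The log2 difference was −0.43 ± 0.12 (SE), with edgeR's adjusted p = 0.0153 (Benjamini-Hochberg). In the 31 columns of the first run alone it was −0.44, with adjusted p = 0.0264. That run held all 3 controls and 3 of the 5 SCFA libraries. *Hsf1* and *Hspb1* were the 2 members whose groups did not overlap in males at day 7, both lower, and 17.8% of all genes did not overlap, in either direction.

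The level of *Hsf1* in females at day 3 was 26.5, 22.2, 30.8, 37.7 and 37.1 CPM with SCFA and 39.6, 42.0 and 45.7 CPM in controls. Again the groups did not overlap, which held for 7.73% of all genes and for *Hsf1* as the 1 such member. The log2 difference was −0.51 ± 0.13 (SE), with edgeR's adjusted p = 0.0238. The lowest value was that of the lens-rich library. Without it the difference was −0.43 ± 0.12 (SE) with adjusted p = 0.122, so that the call was lost, in a fit that called 0.418% of all genes and 0 members. The call was also lost without female control day 3 replicate 3 (adjusted p = 0.169). Within the first run alone, which keeps the lens-rich library, the difference was −0.69 with adjusted p = 0.00416. That run held all 3 controls and SCFA replicates 1 to 3. It left out the SCFA libraries closest to the controls, at 37.7 and 37.1 CPM, which have no control in their own run.

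In the other strata *Hsf1* was not called. The log2 difference of *Hsf1* was −0.09 (95% interval −0.35 to 0.18) in males at day 3, −0.04 (−0.32 to 0.24) in males at day 14, −0.06 (−0.33 to 0.20) in females at day 7 and 0.09 (−0.18 to 0.36) in females at day 14. In each of these strata the groups overlapped. The value in females at day 7 moved to −0.22 ± 0.14 (SE), with adjusted p = 0.656, without the control library that held Y-linked transcripts. For the mean of the 6 strata it was −0.17 (95% interval −0.28 to −0.07), with adjusted p = 0.0133 by edgeR, and −0.16 with adjusted p = 0.0143 without the lens-rich library. Mean levels were 38.4 CPM over 24 SCFA libraries and 43.3 CPM over 19 controls, which overlapped.

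**Figure D3:**
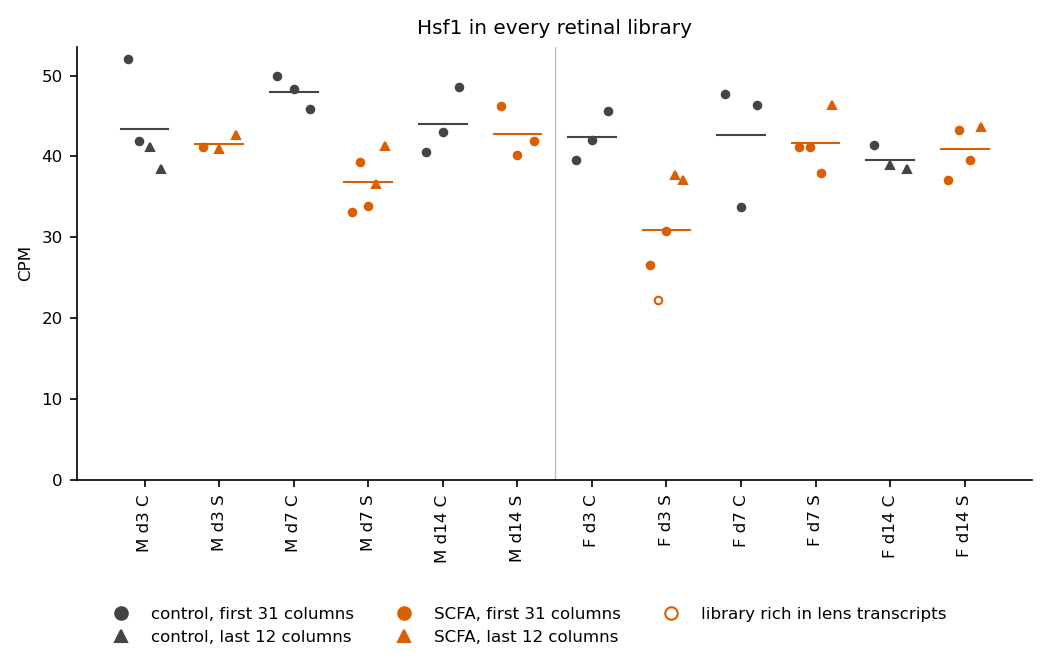
*Hsf1* in CPM in each of 43 libraries by group, with circles for the first 31 columns, triangles for the last 12, an open circle for the lens-rich library and a line at each group's mean. SCFA libraries lie below all controls in males at day 7 and in females at day 3, and the groups overlap in the other 4 strata.

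Other measures also differed in males at day 7 and in females at day 3. The summed level of 10 immediate early genes was 183 to 230 CPM with SCFA and 387 to 481 CPM in controls in males at day 7, and 186 to 245 CPM against 391 to 451 CPM in females at day 3. Of 6 Müller glia markers (*Glul*, *Rlbp1*, *Slc1a3*, *Aqp4*, *Gfap* and *Vim*), 3 were higher with SCFA in both strata, and their sum was 3817 to 8142 CPM against 2774 to 3642 CPM in males at day 7 and 3822 to 7122 CPM against 3602 to 4285 CPM in females at day 3. Without the lens-rich library, 0 of these 6 markers were called in females at day 3. The mitochondrially encoded share was 3.74 to 14.8% with SCFA and 5.59 to 6.14% in control males at day 7. Replicates 1 and 3, the lowest in *Hsf1* of these SCFA libraries, had the highest shares, 13.8 and 14.8%. They also had the lowest sums of rod markers, 55503 and 45633 CPM. The 5 markers of the retinal pigment epithelium were *Rpe65*, *Ttr*, *Best1*, *Lrat* and *Rlbp1*, the last of which also counts among the Müller glia markers. Of these 5, 1 was higher in males at day 7 and 3 (0 without the lens-rich library) were higher in females at day 3. Of 6 microglia markers 1 was lower in males at day 7, and of 5 rod markers 1 was lower there. For the mean over the 6 strata, 3 of 6 Müller glia, 4 of 6 lens (0 without the lens-rich library) and 1 of 5 pigment epithelium markers were higher, and 4 of 6 ganglion cell and 2 of 6 microglia markers were lower. The other counts in the mean were the same without that library. The sum of the immediate early genes was also apart in males at day 14, at 170 to 276 CPM with SCFA and 438 to 449 CPM in controls. *Hsf1* was not called there, with a log2 difference of −0.04. The part of these measures in the result for *Hsf1* was not tested. In bulk tissue, fewer cells of a type and less RNA per cell cannot be told apart.

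*Hspb1* encodes HSP25, a small heat shock protein. Its levels in females at day 3 were 11.2, 1464, 10.1, 10.5 and 12.2 CPM with SCFA and 12.2, 10.6 and 9.24 CPM in controls. A single library was high, the lens-rich one, and the other 4, from 10.1 to 12.2 CPM, were close to the controls. The log2 difference was 4.83 ± 1.06 (SE), with edgeR's adjusted p = 0.0165. Without that library it was 0.06 ± 0.22 (SE), with adjusted p = 0.925.

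*Dnajb1* encodes the main stress-inducible J-domain partner of cytosolic HSP70. Its levels in females at day 3 were 69.9, 215, 49.2, 58.1 and 63.3 CPM with SCFA and 57.1, 46.4 and 45.5 CPM in controls. The groups overlapped, and 215 CPM, again in the lens-rich library, was the highest value of all 43. The log2 difference was 0.84 ± 0.28 (SE) with edgeR's adjusted p = 0.0797, and 0.11 ± 0.16 (SE) with adjusted p = 0.775 without that library.

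*Hsp90ab1* and *Hspa8* had their highest levels of all 43 in the same library. *Hsp90ab1* was at 691, 1388, 598, 640 and 715 CPM with SCFA and at 715, 584 and 449 CPM in control females at day 3. The difference of 0.41 ± 0.20 (SE) was not called (adjusted p = 0.225), and without that library it was 0.03 ± 0.15 (SE). *Hspa8* was at 1761, 2572, 1743, 1302 and 1503 CPM against 1768, 1497 and 1380 CPM, and the difference of 0.26 ± 0.18 (SE) became 0.06 ± 0.17 (SE). The sum of the 10 members was 7919 CPM in that library and 3161 to 5496 CPM in the other 42. Beside the lens markers, the 5 markers of the retinal pigment epithelium summed to 2257 CPM there, against at most 1675 CPM elsewhere, and *Cryab* reached 19879 CPM, against at most 121 CPM. Of these 5, *Rlbp1*, also a Müller glia marker, was at 1107 CPM there and at most 1306 CPM elsewhere. *Ttr*, *Rpe65*, *Lrat* and *Best1* were at 891, 166, 91.7 and 1.39 CPM, against at most 479, 70.5, 30.8 and 1.16 CPM.

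**Figure D4:**
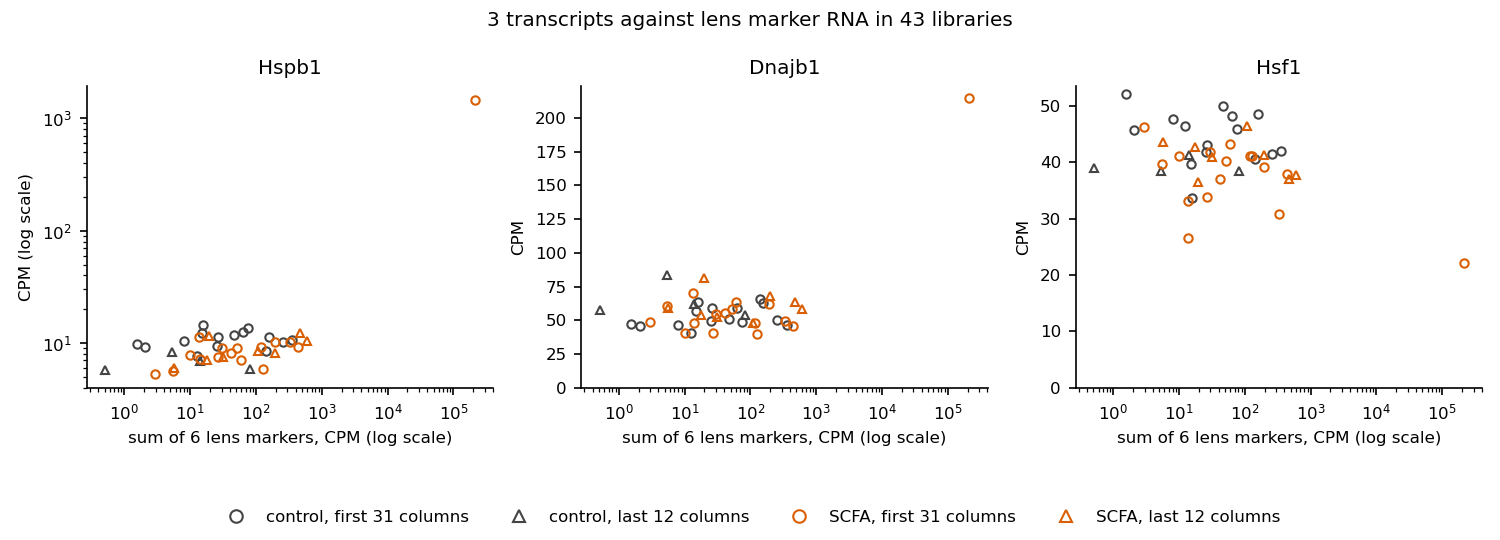
Levels of *Hspb1*, *Dnajb1* and *Hsf1* in CPM against the summed CPM of 6 lens markers, the latter on a log axis and *Hspb1* on a log axis too, with 1 point per library. The library at 210199 CPM of lens markers has the highest *Hspb1* (1464 CPM) and *Dnajb1* (215 CPM) and the lowest *Hsf1* (22.2 CPM), and the other 42 lie at or below 602 CPM of lens markers.

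With the lens-rich library left out, the SE of the differences of *Hspb1* became several times smaller. Its levels in males at day 7 were 7.16, 10.3, 7.47, 11.5 and 8.21 CPM with SCFA and 11.7, 12.4 and 13.6 CPM in controls, without overlap. The log2 difference was −0.10 ± 0.95 (SE), with adjusted p = 0.962, over all libraries. It was −0.46 ± 0.19 (SE), with adjusted p = 0.0938, without both libraries that stood apart, a fit in which 25.8% of all genes were called. Over the mean of the 6 strata the difference was 0.60 ± 0.40 (SE), with adjusted p = 0.276, over all libraries, and −0.27 ± 0.09 (SE), with adjusted p = 0.0198, without the lens-rich library. Its direction for the mean was thus set by that library.

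*Hspa1a* and *Hspa1b* encode near-identical inducible HSP70 proteins. In males at day 14, *Hspa1a* was at 52.3, 67.4 and 71.6 CPM with SCFA and at 57.3, 46.9 and 51.3 CPM in controls, and *Hspa1b* was at 51.1, 66.3 and 62.7 CPM and at 64.4, 53.8 and 48.4 CPM. Both pairs of groups overlapped. The log2 difference of *Hspa1a* there was 0.30, the largest of its 6, with a 95% interval of −0.12 to 0.72. Neither gene was called in any stratum or in the mean, where the differences were 0.07 (95% interval −0.09 to 0.23) for *Hspa1a* and 0.12 (−0.06 to 0.30) for *Hspa1b*, and 0.07 and 0.13 without the lens-rich library. The difference of *Hspa1b* in males at day 7 was 0.18, but 0.50 with edgeR's adjusted p = 0.0284 on the libraries that the study compared, where 19.1% of all genes were called. With a trend of GC content removed, the mean was 0.19 (adjusted p = 0.0632) for *Hspa1a* and 0.23 (0.0491) for *Hspa1b*, where 26.4% of all genes were called.

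*Hsph1* encodes HSP110, the exchange factor of cytosolic HSP70. Its levels in males at day 14 were 38.9, 69.5 and 48.0 CPM with SCFA and 76.8, 64.8 and 72.0 CPM in controls, with overlap through the second SCFA library. The log2 difference was −0.45 (95% interval −0.81 to −0.09) with edgeR's adjusted p = 0.133, and it was −0.71 with adjusted p = 0.0258 without male SCFA day 14 replicate 2. In males at day 3 it was at 35.0, 61.6 and 56.2 CPM with SCFA and at 59.3, 56.1, 69.1 and 75.9 CPM in controls, with a difference of −0.43 (−0.77 to −0.10) and adjusted p = 0.342. Over the mean of the 6 strata the difference was −0.14 (−0.28 to −0.00305) with adjusted p = 0.119, and −0.15 (−0.29 to −0.00722) without the lens-rich library. *Hsph1* was thus not called in the mean over all libraries, but it passed the threshold when any of 10 of the 43 libraries was left out. In males they were SCFA day 3 replicate 2, SCFA day 14 replicate 2 and control day 7 replicate 1. Among SCFA females they were day 3 replicate 1 and day 7 replicate 3. Among female controls they were day 3 replicate 2, day 7 replicates 1 and 3 and day 14 replicates 1 and 2. The difference itself stayed negative without each of them.

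At day 14 in males, 3 members had SCFA libraries below all controls, namely *Hspa8*, *Hsp90ab1* and *Dnajb1*, and 33.5% of all genes did not overlap in this comparison. *Hspa8* was at 1214, 1272 and 1121 CPM with SCFA and at 1491, 1414 and 1412 CPM in controls. *Hsp90ab1* was at 411, 550 and 511 CPM with SCFA and at 699, 658 and 565 CPM in controls. *Dnajb1* was at 49.0, 58.5 and 54.3 CPM with SCFA and at 65.9, 58.9 and 63.1 CPM in controls. None of these differences was called (adjusted p = 0.472, 0.314 and 0.725 by edgeR). Without both libraries that stood apart, *Hsp90ab1* was called at −0.39 ± 0.14 (SE) with adjusted p = 0.0712, as was *Hsph1* at −0.45 ± 0.17 (SE) with adjusted p = 0.0859, in a fit that called 14.1% of all genes.

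In the other strata, the count of members without overlap was 0 in males at day 3, in females at day 7 and in females at day 14, where 8.56%, 7.22% and 4.01% of all genes did not overlap. *Hsp90aa1*, the most abundant member, differed between SCFA and control by between −0.19 in males at day 14 and 0.28 in females at day 7. In the latter it was at 1882, 1793, 2615 and 1628 CPM with SCFA and at 1498, 1955 and 1424 CPM in controls, with a 95% interval of −0.02 to 0.58 and adjusted p = 0.355. *Hspd1* differed by between −0.07 in males at day 14 and 0.23 in females at day 14, where it was at 126, 140, 146 and 156 CPM with SCFA and at 108, 136 and 156 CPM in controls. For the mean of the 6 strata, 95% intervals were −0.05 to 0.19 for *Hsp90aa1*, −0.22 to 0.12 for *Hsp90ab1*, −0.13 to 0.18 for *Hspa8*, and −0.03 to 0.19 for *Hspd1*. Without the lens-rich library they were −0.06 to 0.19, −0.25 to 0.00293, −0.16 to 0.13, and −0.05 to 0.17. The difference of *Hsp90ab1* then went from −0.05 to −0.12, and those of *Hspa8* (0.03 to −0.01) and *Dnajb1* (0.07 to −0.07) changed sign, all without a call.

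**Figure D5:**
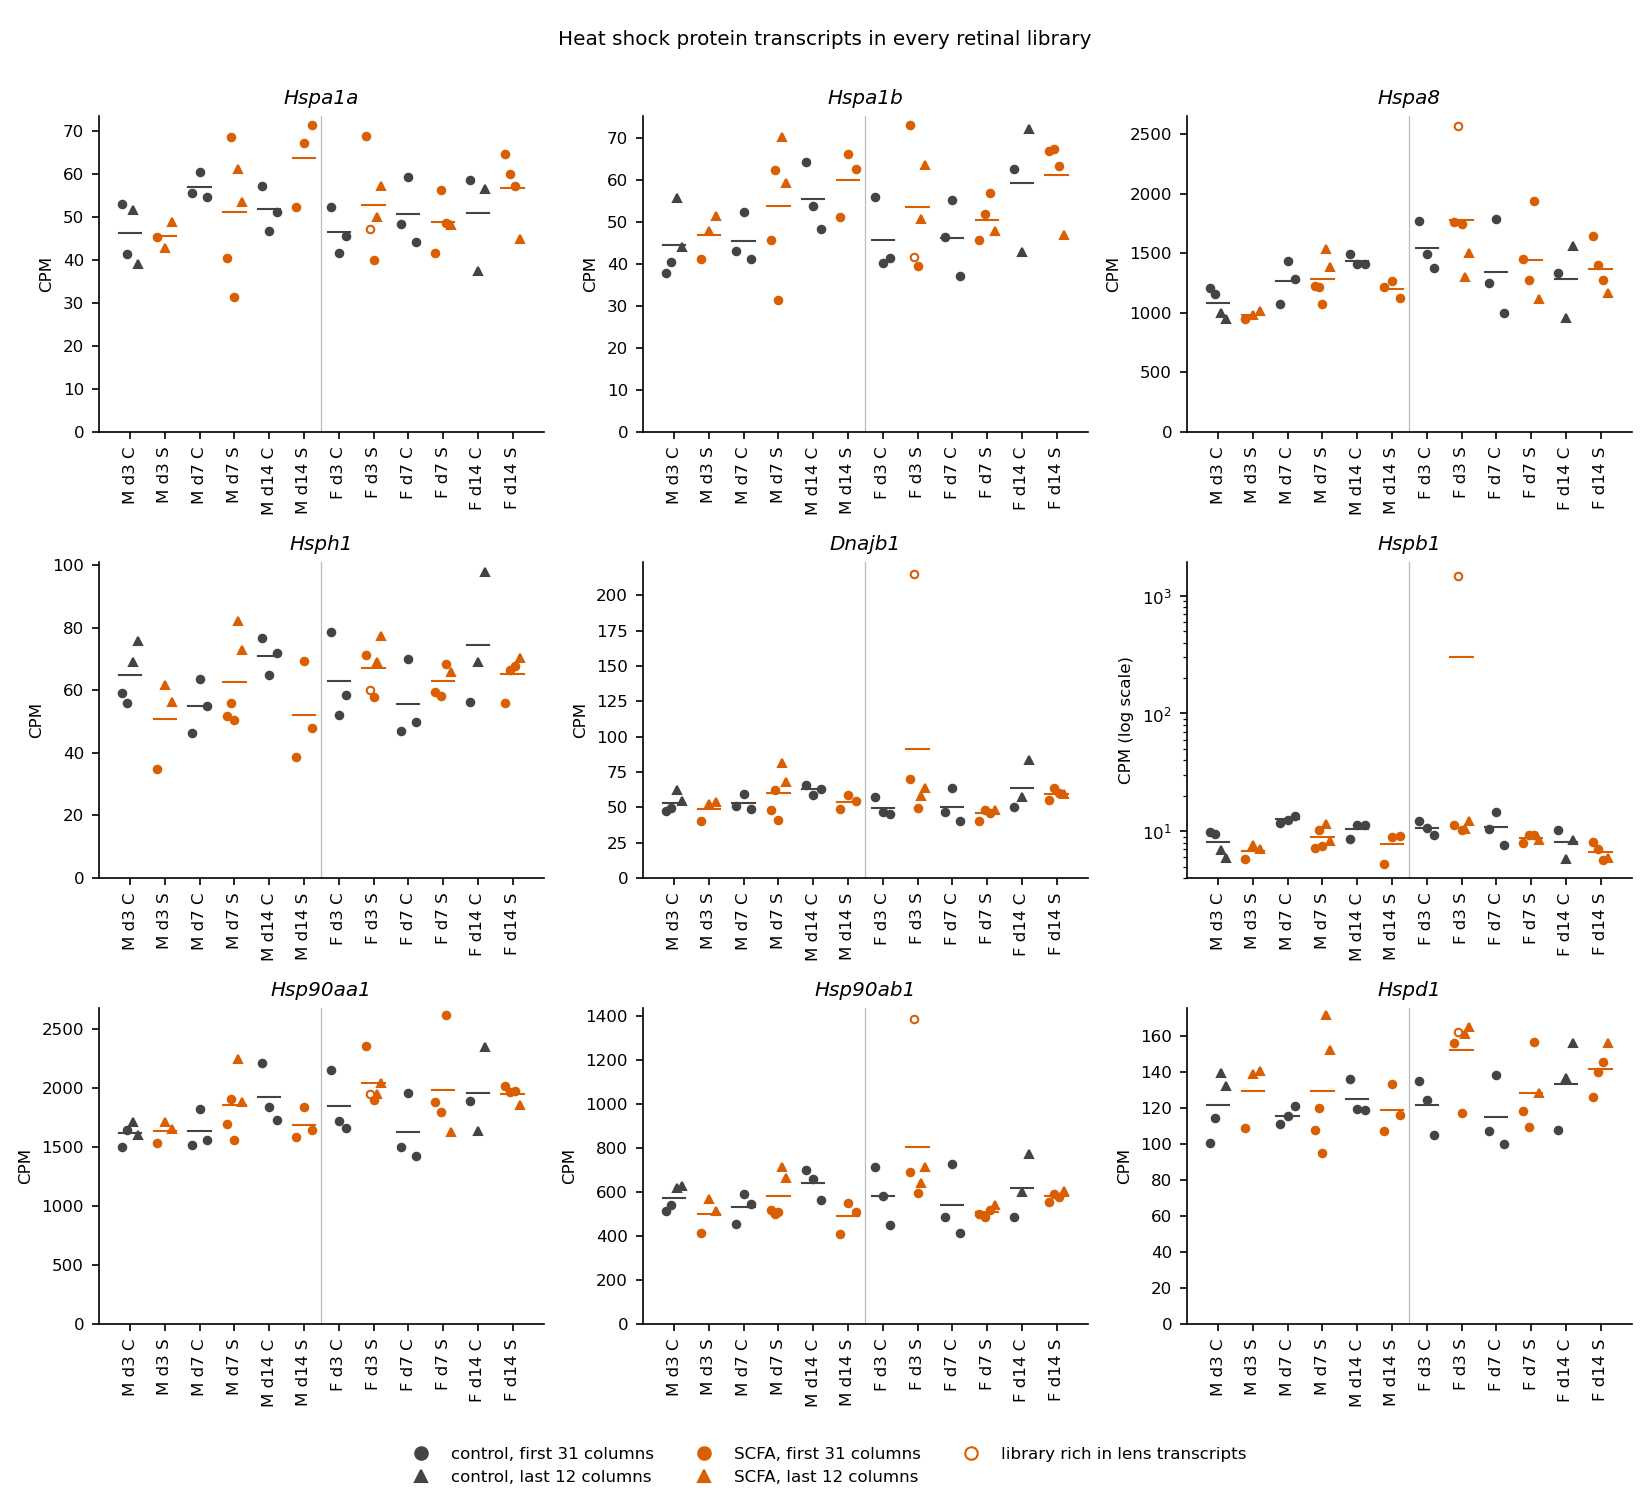
CPM of the 9 members other than *Hsf1* in each of 43 libraries by group, with circles for the first 31 columns, triangles for the last 12, an open circle for the lens-rich library and a line at each group's mean (log axis for *Hspb1* only). SCFA and control do not overlap for *Hspb1* in males at day 7 and for *Hspa8*, *Hsp90ab1* and *Dnajb1* in males at day 14, and the open circle is the highest value of *Hspa8*, *Dnajb1*, *Hspb1* and *Hsp90ab1*.

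Males were compared with females among the controls on each day. At an adjusted p under 0.1, 0 members were called at day 3, day 7 and day 14, where 0.0495%, 0.0275% and 4.65% of all genes were called. An unadjusted p under 0.05 was reached by 1, 0 and 0 members and by 941, 694 and 3299 genes, and DESeq2, which gave no adjusted p for *Hspb1*, called 0 members. The member with the smallest p was *Hspa8* at day 3, at 1206, 1160, 1002 and 953 CPM in males and at 1768, 1497 and 1380 CPM in females, without overlap. Its log2 difference was −0.44 ± 0.19 (SE), with adjusted p = 0.950.

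The response of males to SCFA minus that of females, the interaction of sex and treatment, was fitted for each day. It was called for 0 members and for 0% of genes on each of the 3 days, with unadjusted p under 0.05 for 4, 1 and 0 members and for 2296, 1332 and 1822 genes. DESeq2, which gave no adjusted p for *Hspb1*, called 0 members. For *Hsf1* the response in males minus that in females was 0.42 ± 0.18 (SE) at day 3 (adjusted p = 0.329) and −0.37 ± 0.18 (SE) at day 7 (adjusted p = 0.679), which was −0.22 ± 0.18 without the female control library that held Y-linked transcripts. A difference between the sexes in the response of *Hsf1* was thus not called on either day, although the response itself was called in males at day 7 and in females at day 3. The interaction of *Hspb1* at day 3 was −4.84 ± 1.40 (SE), with adjusted p = 0.244, and −0.27 ± 0.28 (SE) without both libraries that stood apart.

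Days were compared within treatments as the mean of both sexes. Among controls, 0 members and 0% of genes were called between day 3 and day 7, and also between day 7 and day 14. Among SCFA libraries, 0 members were called between day 3 and day 7 (0% of genes) and between day 7 and day 14 (0.0659% of genes). Unadjusted p under 0.05 was reached by 0, 2, 1 and 0 members and by 1191, 1701, 1555 and 2497 genes in these comparisons, and DESeq2, which gave no adjusted p for *Hspb1*, called 0 members in each. The 2 members were *Hsp90aa1* (0.24 ± 0.11, SE) and *Hsph1* (0.26 ± 0.13, SE), whose levels were nominally higher at day 14 than at day 7 in controls, with adjusted p = 0.507 and 0.526. The 1 member was *Hspb1* in SCFA retinas, at −2.36 from day 3 to day 7 over all libraries and at −0.000364 without both libraries that stood apart.

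Across the 43 libraries, most members varied together. Pearson's r of log2(CPM + 1), centred within each run, was 0.84 for *Hspa1a* with *Hspa1b*, which share sequence, 0.82 for *Hsp90aa1* with *Hspd1* and 0.78 for *Hspa8* with *Hsp90aa1*. The libraries share groups and column runs, and the values are a description only. Several rested on the lens-rich library, since r of *Dnajb1* with *Hspb1* fell from 0.84 to 0.36 over the other 42 and r of *Dnajb1* with *Hspa1b* rose from 0.34 to 0.78. The values for *Hsf1* with the others were mostly negative, with r between −0.68 for *Hsp90ab1* and 0.05 for *Hspa1a*, or between −0.54 for *Hsp90aa1* and 0.01 for *Hspa1a* over 42 libraries.

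The 8 genes outside the members whose pattern was most like the mean of *Hspa1a*, *Hspa1b*, *Hsph1* and *Dnajb1* over 43 libraries were *Rdh11* (r = 0.82), *Blcap* (0.82), *Cdc5l* (0.82), *Pygm* (0.80), *Krr1* (0.79), *Timm29* (0.78), *Ahsa1* (0.78) and *Utp6* (0.78). Over 42 libraries, 6 of these stayed among the closest 8. *Ahsa1*, an activator of the HSP90 ATPase, is the only one of them among the further chaperones and co-chaperones listed for comparison, and it ranked eleventh over the 42.

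Beyond the members, 8 lists held 75 chaperones, co-chaperones and stress genes, of which 74 were tested. Males at day 7 had 11 that were higher with SCFA and 4 that were lower, with a median log2 difference of 0.03 beside −0.02 over all genes. These were 20.3% of the 74, beside 22.2% of all genes called. Males at day 14 had 1 that was higher and 7 that were lower, or 10.8% beside 7.13%, with a median of −0.17 beside 0.00665. Females at day 3 had 9 that were higher and 0 that were lower, or 12.2% beside 8.11%, and without the lens-rich library 1 was higher and 0 lower, beside 0.418% of all genes. In males at day 3, females at day 7 and females at day 14, 0 were called. Over the mean of the 6 strata, 17 were higher and 17 lower, or 45.9% beside 34.7%, and 16 and 21, or 50% beside 36.7%, without that library. Among controls at day 14, 1 was higher and 3 lower in males than in females, or 5.41% beside 4.65%, and in the other comparisons of sex and day 0 were called. Counts in the single lists stand beside the same shares of all genes.

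Among 12 co-chaperones of HSP90, 3 were higher and 2 lower in males at day 7. *St13*, the HSC70-interacting protein Hip, stood at 256 CPM with SCFA and 159 CPM in controls (0.81 ± 0.13, SE, adjusted p = 0.000250 by edgeR). *Ptges3*, the co-chaperone p23, stood at 241 against 154 CPM (0.91 ± 0.16, SE, adjusted p = 0.000386). Over the mean of the 6 strata 4 were higher and 4 lower, with *St13* at 0.32 ± 0.06 (SE) and *Ptges3* at 0.38 ± 0.07 (SE) higher and *Cdc37*, which loads kinases onto HSP90, at −0.35 ± 0.09 (SE) lower. Among control retinas at day 14, *St13* and *Ptges3* were lower in males than in females, by −0.64 ± 0.15 and −0.57 ± 0.18 (SE). The adjusted p was 0.0361 and 0.0878 by edgeR. Mean levels were 168 CPM in males and 227 CPM in females for *St13*, and 155 and 166 CPM for *Ptges3*. All 3 male libraries but only 1 of the 3 female ones were in the first run, so both differences depend on the adjustment for the run.

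Of 8 J-domain co-chaperones, 2 were higher and 1 lower in males at day 7. *Dnaja1*, a partner of HSC70, rose by 0.63 ± 0.14 (SE, adjusted p = 0.00235 by edgeR), and *Dnaja4* stood at −0.65 ± 0.24 (SE, adjusted p = 0.0584). Mean levels, without adjustment for the run, were 237 CPM with SCFA and 163 CPM in controls for *Dnaja1*. For *Dnaja4* they were 17.2 and 20.8 CPM, a smaller difference than the fitted one. Of 17 chaperones and stress genes of the endoplasmic reticulum, 2 were higher and 0 lower in males at day 7 and in females at day 3. *Pdia4*, a protein disulfide isomerase, was higher in both (0.54 ± 0.11 and 0.56 ± 0.11, SE), in males at day 14 (0.38 ± 0.12, SE) and in the mean (0.37 ± 0.05, SE, adjusted p = 8.33e-07). Without the lens-rich library it was at 0.57 ± 0.11 (SE) with adjusted p = 0.0447 in females at day 3. Over the mean, *Dnajb9*, a J-domain partner of BiP, was also higher (0.39 ± 0.08, SE), and *Ddit3*, the stress factor CHOP, was lower at −0.46 ± 0.07 (SE, adjusted p = 2.30e-05).

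Of 5 other small heat shock proteins tested, 2 were higher in females at day 3, namely *Cryab* (5.74 ± 1.15, SE) and *Hspb2*, and 0 without the lens-rich library, where *Cryab* was at 0.72 ± 0.22 (SE) with adjusted p = 0.138. Of 3 other genes around heat shock factors, *Hsf4*, known for its role in the lens, was called higher in females at day 3 (1.45 ± 0.52, SE, adjusted p = 0.0995). It was at 98.4 CPM in the lens-rich library, against 5.01 to 12.5 CPM in the other 42, and at −0.45 ± 0.19 (SE, adjusted p = 0.260) without it. *Hsf2* and *Hsbp1*, which binds HSF1, were higher in the mean by 0.18 ± 0.07 and 0.15 ± 0.05 (SE). The mitochondrial co-chaperonin *Hspe1*, the partner of *Hspd1*, was higher in females at day 3 (0.52 ± 0.16, SE, adjusted p = 0.0581), but at 0.25 ± 0.13 (SE, adjusted p = 0.357) without the lens-rich library. Of 8 subunits of the CCT chaperonin, which folds actin and tubulin, 1 was higher in males at day 7 (*Cct6a*, 0.39 ± 0.10, SE) and 2 lower in males at day 14 (*Cct4*, −0.46 ± 0.14, SE, and *Cct3*, −0.47 ± 0.15, SE).

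A list of 10 immediate early genes, which cells switch on within minutes of a stimulus, was also compared. With SCFA, 6 were lower in males at day 7, 7 in males at day 14, 5 in females at day 3, 4 in females at day 7 and 8 in the mean, beside 22.2%, 7.13%, 8.11%, 0.643% and 34.7% of all genes called. In males at day 3 and in females at day 14, 0 were called (0.022% and 0% of all genes), with medians of −0.64 and −0.97, and 0 were higher in any comparison of SCFA with control. *Nr4a1*, a nuclear receptor of this class, had a mean level of 26.0 CPM over 24 SCFA libraries and 61.3 CPM over 19 controls, a log2 difference of −1.22 ± 0.13 (SE, adjusted p = 2.11e-07 by edgeR). The median log2 difference of this list in the mean was −0.82, or −0.84 without the lens-rich library, beside 0.07, or −0.04 without it, for the 10 heat shock members. Without that library, 3 of the 5 genes counted in females at day 3 were called.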

How the data were processed

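The authors deposited counts of reads per gene for 43 retinal libraries, without normalization. Sequencing was by Novogene, with paired-end reads of 150 bases, and the submitters' processing notes list mm10 and DESeq2. The aligner, the counter and the strand setting are not given in the sources used here. Groups were taken from the library names, since the treatment field of the labels reads the same for all samples. Members and gene lists were chosen with earlier results of these data known.

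Counts were tested in edgeR 4.0.16 (R 4.3.3) with filterByExpr, TMM scaling and a quasi-likelihood fit of all 43 libraries in 12 groups, with the run of columns (first 31 or last 12) as a block and 30 residual degrees of freedom. The Benjamini-Hochberg adjustment ran over 18197 genes, and a gene was called at an adjusted p under 0.1, the threshold of the study, with no minimum fold change. The study compared pairs of groups on chosen libraries with DESeq2, and that choice of libraries, fitted in edgeR, and DESeq2 1.42.0 on all libraries were alternatives. DESeq2 gave no adjusted p for *Hspb1*, so its counts of members called cover the others only. An SE is the log2 difference divided by the square root of the F statistic, and 95% intervals use the residual degrees of freedom. CPM per kilobase uses the union of exons in GENCODE M21 on GRCm38. Named genes were all 10 members, at most the 3 called genes with the smallest adjusted p of each other list in a comparison, the 8 genes most alike in pattern, and the markers of cell types. The fits were tested on simulated data. Counting error alone would make totals of 14826957 to 21507527 counts precise for these members, whose lowest count was 92, so the spread between libraries limits the precision. Python 3.11.15 with pandas 2.3.3, numpy 2.4.6 and matplotlib 3.10.9 made the annotation and figures.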

Additional observations from a re-analysis of the deposited data

Results flagged for a closer look

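In groups of 4 or 5 libraries, 50 combinations of a member and a group were examined for a library far from the others, by its gap to the nearest library divided by the range of the group. Chance alone gives about 1 in 20, and 4 of 50 passed Dixon's 95% critical value. They were all in the 5 female SCFA libraries of day 3. In replicate 2, the lens-rich library, the ratio was 0.999 for *Hspb1* (1464 CPM, nearest 12.2 CPM), 0.875 for *Dnajb1* (215 CPM, nearest 69.9 CPM) and 0.852 for *Hsp90ab1* (1388 CPM, nearest 715 CPM). In replicate 3 of the same group, *Hspd1* was low at 117 CPM, with a ratio of 0.808 to the nearest library at 156 CPM. Leaving out replicate 2 moved the difference of *Hsp90ab1* in females at day 3 from 0.41 to 0.03. The part of lens tissue in these values was not tested.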

How the results depend on the processing

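Over 17 comparisons and all settings, the count of members called stayed within 1.5 times its value in 399 cases and moved in 34, with the main fit read at other thresholds among them. Only males at day 7, females at day 3 and the mean had members called in the main fit. In the other comparisons a count that stayed at 0 was among the 399, and a stricter threshold could not move it. With a log2 fold change over 1 as a further condition, the count of members called for SCFA against control was 0 in males at day 7, 1 in females at day 3 (*Hspb1*) and 0 in the mean (3.37%, 2.09% and 0.703% of all genes). With only the groups compared in the fit it was 1 in males at day 3 (*Hsph1*), 2 in males at day 14 and 0 in females at day 3 (1.88%, 24.6% and 0.0123%). With the libraries of the study, pairwise, it was 4 in males at day 7 (*Hspd1*, *Dnajb1* and *Hspa1b* higher, *Hsf1* lower; 19.1%) and 2 in males at day 14 (24.6%). Without the block for the run it was 1 in females at day 3 (*Hspb1*; 0.5%). With no filter on low counts it was 1 in males at day 14 (*Hsph1*), 2 in the mean (*Hsf1*, *Hspb1*), 2 for the interaction at day 3 (*Dnajb1*, *Hspb1*), 2 between day 3 and day 7 in SCFA retinas and 1 between day 7 and day 14 there (*Hspb1*), beside 4.87%, 15.7%, 2.72%, 1.37% and 1.98% of all genes. The causes were not tested.

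Alternatives chosen after seeing the data were the removal of both libraries that stood apart, of the GC trend and of the length trend. Without both libraries, the count was 2 in males at day 7 (*Hsf1*, *Hspb1*), 2 in males at day 14, 1 in females at day 3 (*Hsf1*, adjusted p = 0.0849) and 2 in the mean (*Hsf1*, *Hspb1*), beside 25.8%, 14.1%, 1.11% and 33.5% of all genes, and the mean of *Hspb1* reversed to −0.23. With the GC trend removed it was 4 in the mean (*Hspa1a* and *Hspa1b* higher, *Hsph1* and *Hsf1* lower; 26.4%). With single libraries left out, counts ranged from 0 to 1 in males at day 14, 0 to 3 in females at day 3, 1 to 2 in the mean and 0 to 1 for the interaction at day 3. The 0 in females at day 3 came without SCFA replicate 2, which also reversed the mean of *Hspb1* to −0.27 (range over all single removals −0.27 to 0.68), and without control replicate 3. The 1 came for *Hsph1* without male SCFA day 14 replicate 2 and for *Hspb1* without female SCFA day 3 replicate 4.

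The decrease of *Hsf1* was past the threshold under 13 of 13 other settings without a condition on the fold change and 8 of 8 single removals in males at day 7 (adjusted p between 0.00479 and 0.0848), and under 12 of 12 and 43 of 43 in the mean. In females at day 3 it was past it under 10 of 12 and 6 of 8, and it was lost without the run block (adjusted p = 0.115) and with only the groups compared (0.412). Each of these counts of settings includes the main fit read at an adjusted p under 0.05, which is no separate fit. A fit with a replicate block gave the same count of members in all 17 comparisons, and *Hsf1* in males at day 7 was at −0.47 with adjusted p = 0.00707. The numbers share no animals, and same-numbered libraries of different groups correlated at a mean r of 0.0154 over 209 pairs in their deviations from group means, with 63 pairs over 0.1, so they were not taken as pairs.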
